A study of Mus musculus with 18 samples.

Results

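Trophoblast stem cells (TSCs) are kept in a dividing, undifferentiated state by transcription factors. A chosen list of 9 genes of trophoblast transcription factors is described here: Cdx2, Eomes, Elf5, Esrrb, Tfap2c, Ets2, Tead4, Gata3 and Sox21. The list is not complete, and Sox2 is outside it. The 9 genes were matched by symbol, with no threshold on a measured value but with earlier results of these data known. They come from 14804 mouse genes that appear in at least 1 of 3 expression tables. All 9 are listed in the TSC table of 13518 genes and 8 in the embryonic stem cell (ESC) table of 13578 genes, where Elf5 was not analysed here. In the table of extra-embryonic endoderm (XEN) cells, with 11538 genes, 5 are listed (Tead4, Ets2, Gata3, Sox21 and Elf5), and the others were not analysed here.

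RNA of each cell type was sequenced from cells in normoxia, or after 2 or 7 days in hypoxia, with 2 libraries per condition and 18 in all. The ESCs were the wild-type E14 line, grown without feeder cells in serum and LIF. The TSCs were grown on a feeder layer with FGF4 and heparin, so feeder RNA can enter those libraries, and the XEN cells were grown in feeder-conditioned medium. Neither the TSC nor the XEN line is named in the labels, and no group carried an engineered allele or drug. The 2 libraries of a condition were biological replicates by the study's methods, which do not say whether these were separate cultures, so every p-value measures only the spread between these libraries.

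In the mouse embryo the trophectoderm, the outer layer that gives rise to the placenta, is set apart from the pluripotent inner cells. TEAD4, with its coactivator YAP, switches on Cdx2 and Gata3 in outer cells, and CDX2 in turn represses the pluripotency gene Pou5f1. EOMES, ELF5, TFAP2C, ETS2 and ESRRB then sustain the stem cell pool, which depends on FGF signalling through ERK. When FGF is withdrawn, the stem cell factors are lost and trophoblast cells differentiate into giant cells and other placental types. Several members have a second life elsewhere: Esrrb and Tfap2c act in pluripotent or germ line cells, and Eomes acts in the primitive streak.

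Promoters are shown for the 5 members with the largest changes in TSCs, as the stretch of sequence next to each gene's start. RefSeq promoter windows (GRCm38.p6, from 250 bases before to 50 after a transcription start) matched 7 of the 9 members, with 9 windows in all, since Elf5 and Esrrb have 2 each. Tfap2c and Tead4 have no window here. The 5 windows below belong to Cdx2, Eomes, Elf5, Esrrb and Sox21. Capitals mark matches, on either strand, to short motifs: the hypoxia response core ACGTG with its variant form GCGTG, the TEAD motif GGAATG, the ESRRB half-site AAGGTCA, the EOMES motif TCACACC, the CDX motif TTTATG, the ETS motif CCGGAAG, the AP-2 motif GCCNNNGGC of the TFAP2C family, the GATA motif AGATAA and the SOX motif ACAATGG.
Cdx2, chr5:147307200-147307499 (- strand): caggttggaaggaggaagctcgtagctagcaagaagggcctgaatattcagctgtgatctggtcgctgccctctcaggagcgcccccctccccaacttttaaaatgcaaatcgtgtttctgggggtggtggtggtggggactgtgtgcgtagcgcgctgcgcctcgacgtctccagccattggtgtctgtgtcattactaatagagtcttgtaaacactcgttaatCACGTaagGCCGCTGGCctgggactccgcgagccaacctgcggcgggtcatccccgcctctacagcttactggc
Eomes, chr9:118477939-118478238 (+ strand): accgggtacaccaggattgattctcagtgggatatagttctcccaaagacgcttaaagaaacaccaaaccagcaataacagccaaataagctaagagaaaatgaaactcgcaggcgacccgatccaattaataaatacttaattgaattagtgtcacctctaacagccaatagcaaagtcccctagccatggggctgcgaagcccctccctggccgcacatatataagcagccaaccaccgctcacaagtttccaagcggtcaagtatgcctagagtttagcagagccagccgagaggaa
Elf5, chr2:103423818-103424117 (+ strand): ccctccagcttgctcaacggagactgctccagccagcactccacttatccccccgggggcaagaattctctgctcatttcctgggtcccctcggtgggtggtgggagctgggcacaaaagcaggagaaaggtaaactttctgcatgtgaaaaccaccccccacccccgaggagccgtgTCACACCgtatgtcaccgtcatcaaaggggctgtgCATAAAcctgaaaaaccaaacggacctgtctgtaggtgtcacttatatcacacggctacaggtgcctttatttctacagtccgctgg
Esrrb, chr12:86360867-86361166 (+ strand): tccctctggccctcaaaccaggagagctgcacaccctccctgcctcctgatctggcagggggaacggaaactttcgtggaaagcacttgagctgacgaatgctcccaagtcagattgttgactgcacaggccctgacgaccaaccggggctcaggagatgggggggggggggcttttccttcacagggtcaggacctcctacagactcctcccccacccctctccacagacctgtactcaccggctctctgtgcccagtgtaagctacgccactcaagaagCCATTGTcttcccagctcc
Sox21, chr14:118236981-118237280 (- strand): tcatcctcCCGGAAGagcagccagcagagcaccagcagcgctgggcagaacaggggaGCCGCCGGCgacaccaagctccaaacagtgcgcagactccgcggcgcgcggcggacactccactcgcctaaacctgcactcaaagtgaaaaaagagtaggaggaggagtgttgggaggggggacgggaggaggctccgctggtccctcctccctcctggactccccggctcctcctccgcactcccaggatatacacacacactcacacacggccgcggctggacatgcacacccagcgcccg

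The Cdx2, Eomes, Esrrb and Sox21 windows span the first base of the annotated gene, whereas the Elf5 window shown lies inside the gene, at its downstream start. That Elf5 window held a TCACACC match and, on the opposite strand, a TTTATG match, letters carried by 3.98% and 11.9% of all 32851 mouse promoter windows. Cdx2 held ACGTG, which was in 19.6% of windows, and an AP-2 match (16.6% of windows), and these 2 matches do not overlap. Sox21 held a CCGGAAG match (8.86%) and an AP-2 match, and Esrrb held a SOX match (3.66%) just after its start. The Eomes window held none of the motifs. Of the windows not shown, the upstream Elf5 window held a GGAATG match (14.7%) and a SOX match, Ets2 held GCGTG (32.4%) in 2 places, and Gata3 held 3 AP-2 matches. AAGGTCA (4.72%) and AGATAA (11.2%) were in none of the members' windows. A match is a description of letters and was not tested for binding.

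Expression was deposited as TPM, a transcript abundance scaled by gene length and library depth. Whole reads could be recovered from these values, giving 43011670 to 49851162 per TSC library and 35592641 to 75204029 over all 18. The cells labelled ESC and XEN carried their markers. For TSCs the marker list is the 9 members themselves, so its sum is no separate check of the label. The summed level of the 9 stem cell factors was 1006 to 1782 TPM (by exon length) in TSC libraries, against 475 to 568 in ESCs, where Esrrb made up most of it, and 143 to 219 in XEN cells. Pluripotency markers summed to 9849 to 11854 in ESCs against 505 to 1383 in TSCs, and endoderm markers to 3076 to 3829 in XEN cells against 26.2 to 54.1 in TSCs. Hand1, a trophoblast giant cell factor, was high in all 6 TSC libraries (4724 to 9774 by exon length). It belongs to a list of 17 markers of differentiated trophoblast, of which 13 were listed in TSCs. Its level is therefore no check of the undifferentiated state. All 12 feeder fibroblast markers were listed in TSCs, and their sum differed between replicates: 1559 and 229.6 in normoxia, 188.4 and 841 at day 2, and 392 and 253 at day 7.

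Levels of different genes are compared below by exon length, because the deposited TPM were scaled by the whole gene span, introns included. This matters most for Esrrb, whose span (chr12:86361117-86521628, mm10, + strand) is 26.5 times its exonic length, and for Tead4 (chr6:128224288-128300823, - strand), at 21.3 times. By deposited TPM Esrrb ranked last of the 9 in normoxic TSCs, and by exon length 2 members, Tfap2c and Eomes, were above it. The order by exon length was Tfap2c (344 ± 54.6 TPM, SD, n = 2), Eomes (243 ± 28.3), Esrrb (205 ± 18.1), Ets2 (193 ± 12.5), Tead4 (177 ± 1.46), Elf5 (124 ± 3.66), Cdx2 (120 ± 7.40), Gata3 (120 ± 16.1) and Sox21 (62.5 ± 17.4). The libraries of Esrrb and Ets2 overlapped, as did those of Elf5 with Cdx2 and of Cdx2 with Gata3, so these neighbours did not differ beyond their spread. At day 7 the order was different: Tfap2c (385 ± 0.0807) and Ets2 (274 ± 70.7) led, and Elf5 (36.9 ± 5.02), Cdx2 (35.5 ± 2.12) and Sox21 (19.5 ± 0.928) came last, with overlap between Elf5 and Cdx2.

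To describe the stem cell factors in low oxygen, each condition was compared with the others within the TSC table on deposited TPM. In every cell type the labels give normoxia a single condition without a day. Hypoxia and days in culture therefore cannot be told apart in any comparison here. Between day 7 and normoxia, 5 members were more than 2-fold lower, and 7 of the 9 lay below normoxia in both libraries. The test was limma's moderated test on log2(TPM + 0.5), fitted to genes over 0.4 TPM in at least 2 of 6 libraries, so fold changes are on that scale. A gene was called changed at an adjusted p of at most 0.1 and a fold over 1.5. At these thresholds the authors report, by edgeR, more changed genes against normoxia than were called here, in every cell type and on both days. A gene not called here is therefore not shown to be unchanged. By the call rule 2 members fell, Elf5 and Esrrb, and none rose. For comparison, 0.345% of all 12481 genes tested were called lower, 32.3% lay below in both libraries, and 3.33% were past a 2-fold decrease. The median log2 fold change was -1.69 over the members and -0.18 over all genes. In bulk RNA, fewer cells expressing a factor and less of its RNA per cell cannot be told apart.

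**Figure D1:**
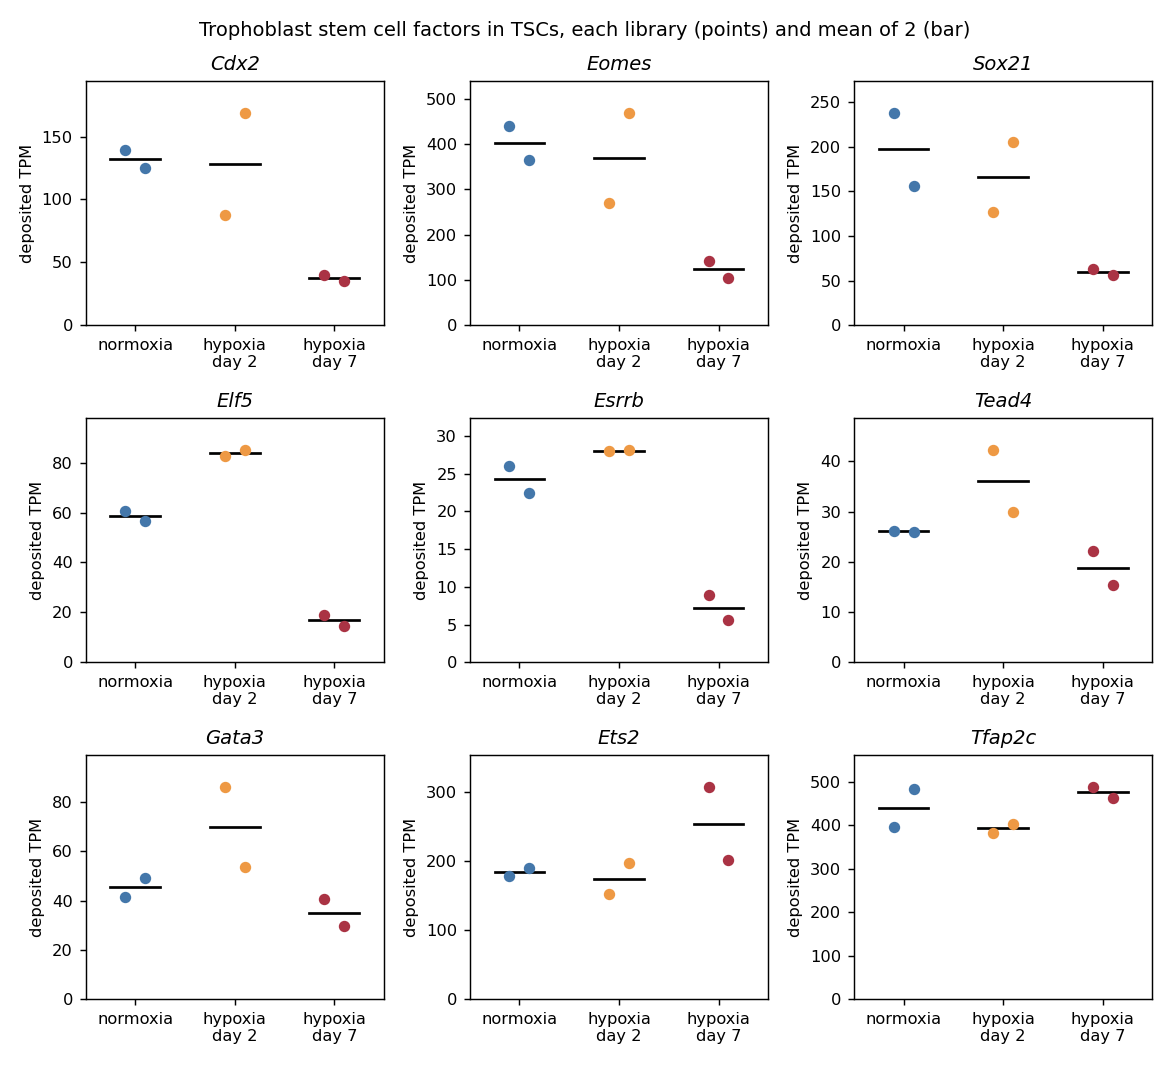
Deposited TPM of the 9 factors (y axis, from 0) in each TSC library (points) in normoxia and at day 2 and day 7 of hypoxia, with the mean of 2 libraries as a bar. The day 7 points of 7 factors, all but Ets2 and Tfap2c, sit below every other point of their panel, and those of Ets2 sit above.

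ELF5 is an ETS-family factor that marks the committed stem cell pool and is kept silent in ESCs by promoter methylation. Elf5 (chr2:103411688-103450989, + strand) was at 60.4 and 56.6 TPM in normoxia, 82.5 and 85.1 at day 2 and 18.8 and 14.7 at day 7. The 3 conditions did not overlap, with day 2 highest and day 7 lowest. The log2 fold change at day 7 was -1.78 ± 0.20 (SE) against normoxia (adjusted p = 0.0435) and -2.30 ± 0.20 against day 2 (adjusted p = 0.00685), comparisons that share the day 7 libraries.

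ESRRB, an orphan nuclear receptor, sustains self-renewal in both TSCs and ESCs. Esrrb was at 26.1 and 22.4 TPM in normoxia, 27.99 and 28.15 at day 2, and 8.89 and 5.64 at day 7. Day 7 was lowest in both libraries, and day 2 lay slightly above normoxia without overlap. Its log2 fold change was -1.70 ± 0.26 against normoxia (adjusted p = 0.0957) and -1.91 ± 0.26 against day 2 (adjusted p = 0.0180).

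CDX2 is the caudal-type homeobox factor that specifies trophectoderm. Cdx2 (chr5:147300805-147307270, - strand) was at 139.6 and 125.0 TPM in normoxia, 88.0 and 168.9 at day 2, and 40.3 and 35.1 at day 7. The day 2 libraries lay on either side of normoxia, and day 7 was below all of them. Against normoxia the log2 fold change was -1.80 ± 0.31 (adjusted p = 0.124), which was not called, and against day 2 it was -1.68 ± 0.31 (adjusted p = 0.0294). By immunofluorescence, the authors report that TSCs kept CDX2 protein after prolonged hypoxia, at a higher level than in normoxia. The values here are of RNA only, and why RNA and protein differ in direction was not tested.

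EOMES is a T-box factor needed for trophoblast stem cells and, later, for gastrulation. Eomes (chr9:118478212-118486132, + strand) was at 439 and 364 TPM in normoxia, 271 and 469 at day 2, and 142 and 104 at day 7. It repeated the Cdx2 pattern, with a wide day 2 pair and day 7 lowest. Its difference on the log2 scale was -1.71 ± 0.30 against normoxia (adjusted p = 0.125) and -1.55 ± 0.30 against day 2 (adjusted p = 0.0328).

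SOX21 is a SOX-family factor known best as a repressor in neural progenitors. Sox21 (chr14:118233232-118237030, - strand), whose span equals its exonic length, was at 238 and 156 TPM in normoxia, 127 and 206 at day 2, and 62.8 and 55.8 at day 7. Again day 2 overlapped normoxia and day 7 lay below. The change was -1.69 ± 0.30 against normoxia (log2 scale, adjusted p = 0.129) and -1.44 ± 0.30 against day 2 (adjusted p = 0.0374). A long noncoding gene on the opposite strand overlaps Sox21, as an antisense gene overlaps the end of Eomes. Whether counting used strand is not given in the sources used here.

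TEAD4 and GATA3 both act in trophectoderm specification, and both genes differed less from normoxia. Tead4 was at 26.2 and 25.9 TPM in normoxia, 42.3 and 29.9 at day 2, and 22.2 and 15.3 at day 7. Gata3 (chr2:9857078-9890034, - strand) was at 41.7 and 49.3, then 86.1 and 53.7, then 40.8 and 29.6. In both genes day 2 was highest and day 7 lowest, without overlap between conditions. Against normoxia, the log2 fold changes at day 7 were -0.49 ± 0.26 for Tead4 (adjusted p = 0.587) and -0.38 ± 0.28 for Gata3 (adjusted p = 0.680). Against day 2 both were called lower, at -0.93 ± 0.26 (adjusted p = 0.0786) and -0.96 ± 0.28 (adjusted p = 0.0841). Gata3 overlaps a protein-coding gene model on each strand, so its reads may be shared, and a pseudogene lies within Tead4 on the opposite strand.

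Ets2 and Tfap2c did not follow the others. ETS2 is an effector of FGF signalling in trophoblast, and Ets2 (chr16:95702075-95721051, + strand) was at 178 and 191 TPM in normoxia, 152 and 197 at day 2, and 307 and 202 at day 7. TFAP2C (AP-2 gamma) acts with CDX2 and EOMES and also in later trophoblast, and Tfap2c (chr2:172549593-172558622, + strand) was at 396 and 484, then 383 and 404, then 488 and 463. Day 7 was the highest condition for Ets2 in both libraries, whereas for Tfap2c it overlapped normoxia and exceeded day 2. Neither was called: the log2 fold changes against normoxia were 0.43 ± 0.25 for Ets2 (adjusted p = 0.598) and 0.12 ± 0.18 for Tfap2c (adjusted p = 0.826), and against day 2 they were 0.52 ± 0.25 (adjusted p = 0.224) and 0.27 ± 0.18 (adjusted p = 0.367).

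The 2 calls at day 7 against normoxia rested on few libraries. No member was called by limma without normoxia replicate 1, without day 7 replicate 1 or without day 7 replicate 2, with 5, 6 and 6 members at an unadjusted p under 0.05 (5 with all libraries, where 10.4% of all genes were under it), and 5 were called without normoxia replicate 2, namely Elf5, Esrrb, Cdx2, Eomes and Sox21. Over all settings the adjusted p ran from 0.0284 to 0.406 for Elf5 and from 0.0523 to 0.630 for Esrrb. The sizes were steadier than the calls, and all 5 stayed negative in those 4 fits. The log2 fold change ranged from -1.89 to -1.70 for Cdx2 and from -1.95 to -1.61 for Elf5. The ranges were wider for Esrrb (-2.009 to -1.395), Sox21 (-1.999 to -1.39) and Eomes (-1.934 to -1.494). Cdx2, Eomes, Sox21, Elf5 and Esrrb were each higher in the replicate with the higher feeder sum in all 3 conditions. The 2 day 7 feeder sums lay within the range of the other 4. At day 2 the feeder sums were far apart, but Elf5 (82.5 and 85.1 TPM) and Esrrb (27.99 and 28.15) hardly differed. These 5 factors also correlated with each other, and the share of all genes in this order was not counted. The part of feeder RNA in the values of these factors was not tested.

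Against day 2 rather than normoxia, 7 of 9 members fell by the call rule (Elf5, Esrrb, Cdx2, Eomes, Sox21, Tead4 and Gata3) and none rose. Of all genes, 13.8% were called lower in this comparison, and 44.9% lay below day 2 in both libraries. The median log2 fold change was -1.44 over the members and -0.24 over all genes. Scaling each library by its median ratio moved the all-gene median to 0.02, and with it the calls from 296 higher and 1723 lower to 738 higher and 968 lower. Under that scaling 5 members were still lower, Tead4 and Gata3 were not called, and Ets2 was called higher (log2 fold change 0.81, adjusted p = 0.0815, range over all settings 0.0815 to 0.660). Leaving out day 2 replicate 1 or day 7 replicate 1 left 2 members called in each case, and leaving out day 7 replicate 2 left 0 of 9 called by limma, with 6 at an unadjusted p under 0.05 and 0 of 12481 genes called.

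At day 2 against normoxia, 0 of 9 members were called by limma, and 0 by voom on the recovered reads, against 0.2% of all genes. At an unadjusted p under 0.05 there was 1 member, Elf5, at 0.51 ± 0.20 (adjusted p = 0.342), beside 13.1% of all genes. Elf5, Esrrb, Tead4 and Gata3 lay above normoxia in both libraries, as did 30.6% of all genes. The hypoxia genes in the same libraries did respond by then. Of 10 targets of the hypoxia-inducible factor HIF, 4 were called higher at day 2, among them Pdk1 (log2 fold change 2.47 ± 0.19, adjusted p = 0.0191) and Bnip3 (2.46 ± 0.18, adjusted p = 0.0191). At day 7, when 7 of the stem cell factors were lowest, no HIF target was called against normoxia by limma, with 4 at an unadjusted p under 0.05. Even so, 9 of 10 had a positive log2 fold change, with a median of 0.45 beside -0.18 over all genes, and their summed level by exon length was 3739 and 4478 at day 7 against 2897 and 3093 in normoxia, without overlap. From day 2 to day 7, 7 of 10 were called lower, beside 13.8% of all genes. Under median-ratio scaling these counts were 2 higher at day 2 and 3 lower from day 2 to day 7.

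**Figure D2:**
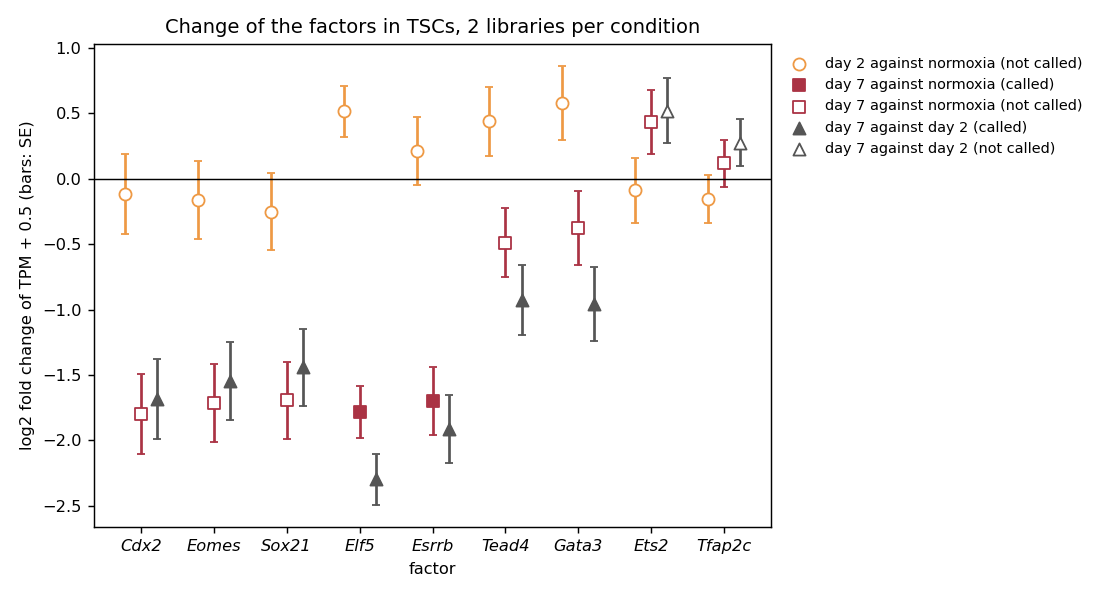
Log2 fold change of TPM + 0.5 (y axis) of the 9 factors in TSCs for 3 comparisons that share libraries, with bars of 1 SE and filled markers for called changes. Elf5 and Esrrb are called lower against normoxia, 7 factors against day 2, and none at day 2.

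Genes around the factors were read from lists. FGF and ERK signalling sustains the stem cell state, and ETV4 and ETV5 are transcription factors induced by it. Of 10 genes of this signal, 2 fell from day 2 to day 7, Etv5 (log2 fold change -1.86 ± 0.28, adjusted p = 0.0195) and Etv4 (-1.29 ± 0.21, adjusted p = 0.0242), beside 13.8% of all genes called lower. Against normoxia 0 of 10 were called by limma, with 5 at an unadjusted p under 0.05 (10.4% of all genes), and all 10 had a negative log2 fold change with a median of -0.76, beside -0.18 over all genes. The ERK feedback gene Dusp6 had the largest difference, at -1.68 ± 0.49 (adjusted p = 0.301), but its replicates differed widely, at 188 and 85.0 TPM by exon length in normoxia, 52.8 and 128 at day 2, and 38.0 and 43.6 at day 7. In normoxia and at day 2 it was higher in the library with the higher feeder sum.

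Of 9 partner regulators, 6 fell from day 2 to day 7, beside 13.8% of all genes called lower. Of these, 1, Sox2, also fell against normoxia, beside 0.345% of all genes. Under median-ratio scaling 3 rather than 6 fell from day 2 to day 7. SOX2 is shared by pluripotent cells and TSCs, where it acts downstream of FGF with ESRRB and TFAP2C. Sox2 was at 660 and 714 TPM in normoxia, 1045 and 1104 at day 2, and 171.7 and 128.6 at day 7. The 3 conditions did not overlap, and the order was that of Elf5. Sox2 changed by -2.20 ± 0.20 at day 7 against normoxia (log2 scale, adjusted p = 0.0185) and -2.85 ± 0.20 against day 2 (adjusted p = 0.00579). Id2, an inhibitor of differentiation, changed by -2.35 ± 0.38 against day 2 (adjusted p = 0.0229), and Bmp4, which the pool secretes toward the embryo, by -1.40 ± 0.22 (adjusted p = 0.0215). In the Hippo-TEAD list, which holds the coactivators and kinases upstream of TEAD4, 0 of 6 genes tested were called by limma in any of the 3 comparisons, and 1 had an unadjusted p under 0.05 in each day 7 comparison and 0 at day 2.

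Markers of differentiated trophoblast went in both directions. Of 13 tested, 0 were called by limma at day 7 against normoxia, with 2 at an unadjusted p under 0.05. Against day 2, 2 were called higher, Plac1 (log2 fold change 2.46 ± 0.50, adjusted p = 0.0359) and the giant cell hormone Prl3d1 (2.15 ± 0.43, adjusted p = 0.0351). Another 2 were lower, Gcm1, which drives syncytiotrophoblast, and Ascl2, which sustains spongiotrophoblast. Neither lower call was kept under median-ratio scaling. Of all 12481 genes tested, 296 were called higher and 13.8% lower against day 2. The sum of the listed markers was 7623 and 13496 in normoxia, 8222 and 7790 at day 2, and 13274 and 12404 at day 7. Day 7 lay above both day 2 libraries and between the 2 normoxia libraries, which differed widely. Hand1 alone made up most of the day 7 sums, so they say little about the other markers. Tpbpa, Prl3b1, Synb and Ctsq were not analysed here.

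The courses of the members over the 6 TSC libraries are given as a description without a test, since the values of a library share its depth and its feeder RNA. Cdx2, Eomes and Sox21 ran almost in parallel, with Pearson r of 0.994 (Cdx2 with Eomes), 0.981 (Cdx2 with Sox21) and 0.986 (Eomes with Sox21) on log2(TPM + 0.5). Elf5 ran with Esrrb (0.987), and Tead4 with Gata3 (0.972). Ets2 and Tfap2c correlated with each other (0.716) and negatively with every other member, from -0.719 to -0.50. Cdx2 and Tead4 stand for 2 courses that part at day 2, where replicate 1 was the lower library for Cdx2, Eomes and Sox21 and the higher for Tead4 and Gata3. With 6 libraries such values are common, since between 74 (Ets2) and 1532 (Tead4) of the other genes had an r over 0.9 with a given member.

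**Figure D3:**
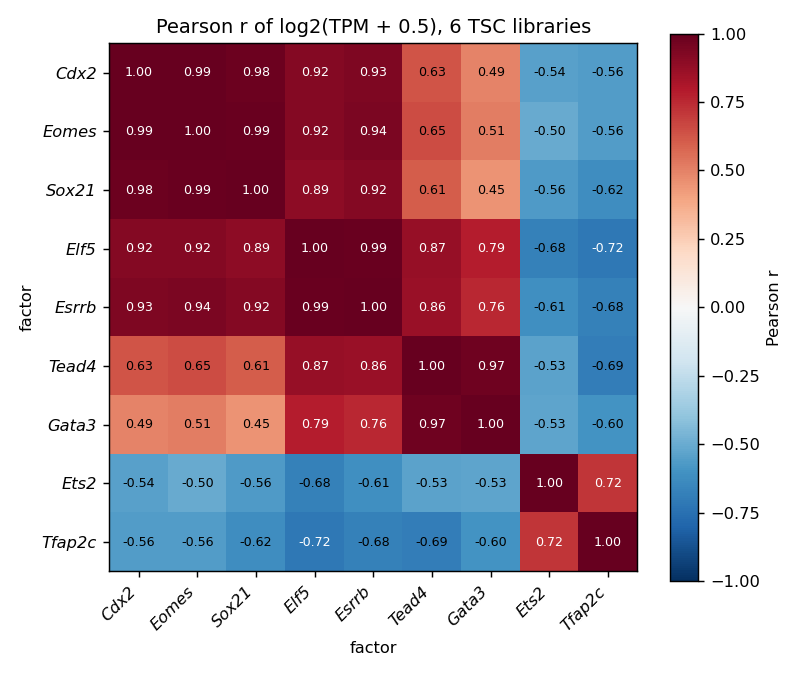
Pearson r between the 9 factors (rows and columns) of log2(TPM + 0.5) over 6 TSC libraries, from -1 (blue) to 1 (red). Cdx2, Eomes and Sox21 form a block with r of 0.98 to 0.99, and Ets2 and Tfap2c are negative with the rest.

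The genes most like each member by the same measure were named by rank. Cyp26a1, which breaks down retinoic acid, was second for Cdx2 (r = 0.993) and first for Eomes (0.996), at 112.6 and 71.4 TPM in normoxia, 52.9 and 126.3 at day 2, and 11.1 and 7.37 at day 7. Sox2 was second for Elf5 (0.999), behind the WNT agonist Rspo1 (0.999). Dnmt3a, a DNA methyltransferase, was first for Ets2 (0.985), and Cdc25b, a cell cycle phosphatase, first for Tead4 (0.999). The remaining genes named by this rule were Zup1 for Cdx2, Slc7a5 for Eomes, Zfp382 and Pdxk for Esrrb, Zfp963 and Shtn1 for Tfap2c, Ube2j2 for Ets2, Csnk2a2 for Tead4, Clmn and Foxn3 for Gata3, and Mpped2 and Colgalt1 for Sox21.

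The factors were not equally restricted to TSCs. The 3 tables were normalized separately, so levels by exon length are set side by side without a test. Cdx2 was at 34.0 to 153 TPM over the 6 TSC libraries and at 1.21 to 3.98 in ESCs, and Gata3 at 83.0 to 224 against 2.18 to 6.29, so that even the lowest TSC library was 8.54 and 13.2 times the highest ESC library. Elf5 was at 33.3 to 180 in TSCs and at 0.129 to 0.740 in XEN cells, where it rested on 8 to 53 reads per library. Eomes, Tfap2c and Ets2 were also higher in every TSC library than in any ESC library.

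Esrrb ran the other way, at 354 to 401 TPM in ESCs against 50.6 to 237 in TSCs. Tead4 was at 110 to 283 in TSCs and 109 to 174 in XEN cells, ranges that overlap, but at 13.5 to 19.7 in ESCs. Sox21 overlapped between TSCs (18.9 to 74.9) and XEN cells (6.004 to 23.4). For both genes the lowest TSC library was at day 7.

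**Figure D4:**
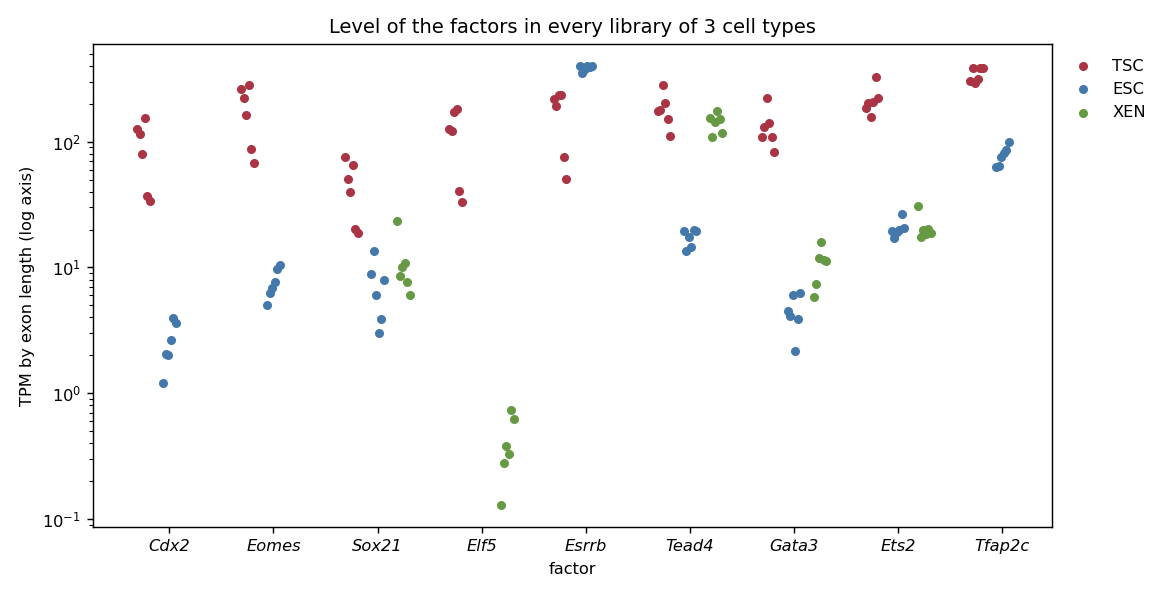
TPM by exon length (log axis) of the 9 factors in each of 6 libraries per cell type, TSC, ESC and XEN, with no point where a factor is not listed in a table. Esrrb is the factor with its highest points in ESCs, and Tead4 overlaps between TSCs and XEN cells.

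In ESCs the factors were low apart from Esrrb and Tfap2c, and several lay above normoxia after hypoxia. At day 7 against normoxia, 0 of 8 members were called by limma and 0 by voom, against 0.758% of all 12271 genes tested. At an unadjusted p under 0.05 there were 4, namely Cdx2, Eomes and Tfap2c with a positive difference and Sox21 with a negative one, beside 8.04% of all genes. Cdx2, Eomes, Tfap2c and Ets2 lay above normoxia in both libraries, as did 23% of all genes.

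Eomes in ESCs was at 7.96 and 9.69 TPM in normoxia, 10.6 and 12.1 at day 2, and 15.4 and 16.2 at day 7. The conditions did not overlap and were ordered by time. At day 7 the difference was 0.81 ± 0.17 on the log2 scale (adjusted p = 0.121). By RT-qPCR the authors report a modest rise of Eomes in hypoxic ESCs. Their western blots showed EOMES protein at a low level that rose gradually. Cdx2 was at 1.27 and 2.08 TPM, then 2.08 and 2.78, then 4.19 and 3.77, with a log2 fold change of 1.06 ± 0.24 (adjusted p = 0.153). These Cdx2 values rest on 26 to 129 reads per library, a level far under that of TSCs. Tfap2c lay in the same order, from 77.4 and 77.0 through 90.2 and 99.6 to 106 and 121 TPM, at 0.55 ± 0.13 (adjusted p = 0.175). Without either day 2 library, Cdx2 and Eomes were called higher (adjusted p = 0.0361 and 0.0351 without day 2 replicate 1; range over all settings 0.0361 to 0.798 and 0.0351 to 0.620).

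Sox21 was the member that was lower in hypoxic ESCs, at 26.9 and 39.8 TPM in normoxia, 17.7 and 9.06 at day 2, and 11.8 and 23.7 at day 7. Both hypoxic pairs lay below normoxia but were widely spread. The differences were -1.33 ± 0.38 at day 2 (adjusted p = 0.711) and -0.95 ± 0.38 at day 7 (adjusted p = 0.563). At day 2, 0 of 8 members were called by limma and 0 by voom, with Sox21 alone at an unadjusted p under 0.05 (5.05% of all genes), and 0% of all genes were called. Without day 2 replicate 1, Sox21 was called lower, at -1.80 (adjusted p = 0.0373, range over all settings 0.0373 to 1). Between day 7 and day 2, 0 of 8 were called by limma and 0 by voom, with 2 at an unadjusted p under 0.05 (Cdx2 and Eomes, beside 4.26% of all genes), against 0.179% of all genes called.

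**Figure D5:**
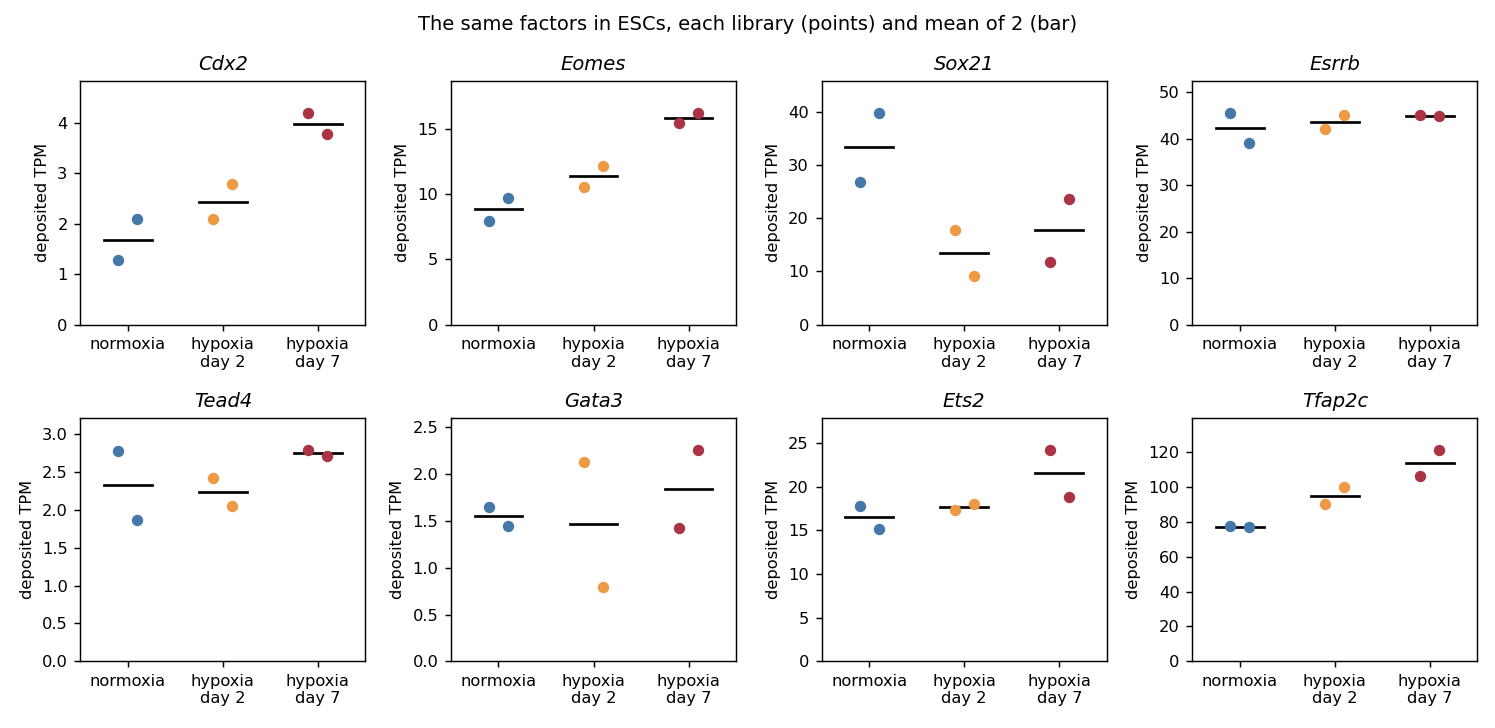
Deposited TPM of the 8 factors listed in ESCs (y axis, from 0) in each library (points) by condition, with the mean of 2 libraries as a bar. Eomes and Tfap2c are ordered by time in hypoxia, and Esrrb stays between 39.1 and 45.5.

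Eomes is also a primitive streak gene, and other genes of that list moved at day 7 in ESCs. Of 6 tested, 3 rose: the T-box gene T (log2 fold change 2.05 ± 0.21, adjusted p = 0.00739), Fgf8 (1.59 ± 0.29, adjusted p = 0.0803) and Wnt3 (1.11 ± 0.21, adjusted p = 0.0813), against 2 under median-ratio scaling. Of all genes, 0.758% were called in either direction. Among trophoblast markers Hand1, which is also a mesoderm gene, rose by 2.04 ± 0.26 (adjusted p = 0.0222), to 5.76 to 8.67 by exon length, beside 8969 or more in day 7 TSCs. In TSCs T was listed at 0 in both day 7 libraries and at a low 1.80 and 1.65 TPM at day 2. Of 5 primitive streak genes tested in TSCs, T among them, 0 were called by limma at day 7 against normoxia. At an unadjusted p under 0.05 there was 1, beside 10.4% of all genes. Esrrb was level in ESCs, with 45.5 and 39.1 TPM in normoxia, 42.1 and 45.1 at day 2 and 44.9 and 44.8 at day 7, and a log2 fold change of 0.09 ± 0.14 at day 7 (adjusted p = 0.979).

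In XEN cells 4 of the 5 listed members were tested, Elf5 lying under the filter, and 0 were called by limma or by voom in any comparison. The share of all 10894 genes called was 0% at day 2, 0.11% at day 7 and 0.0367% between day 7 and day 2. At an unadjusted p under 0.05 there were 1, 2 and 0 of the 4 members in these 3 comparisons, beside 7.77%, 9.01% and 11.9% of all genes. Gata3 was at 2.26 and 2.87 TPM in normoxia, 4.82 and 6.202 at day 2, and 4.47 and 4.42 at day 7. Both hypoxic pairs lay above normoxia, by 0.97 ± 0.22 on the log2 scale at day 2 (adjusted p = 0.423) and 0.70 ± 0.22 at day 7 (adjusted p = 0.440).

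Sox21 in XEN cells was at 75.8 and 27.9 TPM in normoxia, 33.5 and 35.5 at day 2, and 24.6 and 19.5 at day 7. Normoxia replicate 1 stood apart from the other 5 libraries. Day 7 differed from normoxia by -1.05 ± 0.42 (log2 scale, adjusted p = 0.536), and without normoxia replicate 2 it was -1.77 and called (adjusted p = 0.0294, range over all settings 0.0294 to 0.999). Tead4, the most abundant member in these cells by exon length, was at a deposited 23.4 and 16.7 TPM, then 22.8 and 26.6, then 23.2 and 17.8, and all conditions overlapped normoxia. Ets2 was at 17.3 to 30.2 TPM in the 6 libraries, also with overlap throughout.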

How the data were processed

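RNA of mouse ESCs, TSCs and XEN cells was sequenced from total RNA in 18 libraries. According to the methods and processing notes, the authors trimmed reads with cutadapt 2.4, aligned them to mm10 with STAR 2.7.5a, and used StringTie 2.0.6, featureCounts and edgeR 3.26.8. Whether reads were counted by strand is not given in the sources used here. The authors deposited TPM values per gene, 1 table per cell type, scaled by gene span. Whole reads were recovered from them (98.6% to 98.9% of values within 0.05 of a whole number), and TPM by exon length were recomputed with GENCODE gene models for comparisons between genes.

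The column headed D0 was taken as normoxia. Genes over 0.4 TPM in at least 2 of 6 libraries were tested per cell type with limma 3.58.1 (R 4.3.3) on log2(TPM + 0.5), with a mean-variance trend and Benjamini-Hochberg adjustment over all genes tested. Calls needed an adjusted p of at most 0.1 and a fold over 1.5. With 2 libraries against 2, an exact permutation test cannot give a p below 0.333. The members and lists were chosen with earlier results of these data known. Named genes were all members, up to 3 of the largest changes per list and direction, and the 2 genes most correlated with each member. The fit was tested on simulated data. Alternatives were another pseudocount, filter, scaling, replicate block, no trend, voom on recovered reads, exon-length TPM and each library left out. RefSeq promoter windows came from GRCm38.p6. Figures were drawn with matplotlib 3.10.9.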

Additional observations from a re-analysis of the deposited data

Results flagged for a closer look

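In 6 cases every library of a factor moved one way in 1 cell type and the opposite way in another, and the difference between cell types was not tested, since the tables were normalized separately. At day 7 against normoxia, Cdx2 had a log2 fold change of 1.06 in ESCs and -1.8 in TSCs, Eomes 0.814 in ESCs and -1.71 in TSCs, and Gata3 0.698 in XEN cells and -0.379 in TSCs. At day 7 against day 2, which shares the day 7 libraries, Cdx2 was at 0.62 in ESCs and -1.68 in TSCs, Eomes at 0.465 and -1.55, and Tead4 at 0.254 and -0.927. Only the TSC values against day 2 were called. At day 7 against normoxia, 23% of all genes lay above in both libraries in ESCs and 17.5% in XEN cells, and 32.3% lay below in TSCs. Between day 7 and day 2, 15.2% lay above in ESCs and 44.9% below in TSCs. The share of genes with opposite directions in a pair of cell types was not counted. The ESC levels of Cdx2, Eomes and Tead4 stayed below those of every TSC library by exon length.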

How the results depend on the processing

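Of the recomputed counts of called members, 131 stayed within 1.5 times the value given and 16 did not. For TSCs at day 7 against normoxia, 2 members were called, against 1 with no filter on low values, 1 with no mean-variance trend, 4 with exon-length TPM and 0 to 5 with 1 library left out. Leaving out 1 library gave 0 to 7 members in TSCs at day 7 against day 2, 0 to 1 in ESCs at day 2, 0 to 2 in ESCs at day 7 and 0 to 1 in XEN cells at day 7. With only the 4 libraries compared, 2 members were called in ESCs at day 7. A condition left with 1 library was assumed to vary like the others. Over all genes, 48 calls in TSCs at day 7 against normoxia became 0 to 185, 25 at day 2 became 0 to 326 and 2019 at day 7 against day 2 became 0 to 2215. In ESCs 93 calls at day 7 became 8 to 322, 22 at day 7 against day 2 became 0 to 192 and 0 at day 2 became 0 to 493. In XEN cells 0 calls at day 2 became 0 to 61, 12 at day 7 became 1 to 195 and 4 at day 7 against day 2 became 0 to 83. The cause was not tested.

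The labels do not say whether replicate numbers pair the samples, and deviations of same-numbered libraries correlated from -0.46 to 0.27. With a replicate block, 0 members were called in TSCs at day 7 against normoxia, with 13 genes in all, and 7 at day 7 against day 2. Swapping the numbers, chosen after seeing the data, called 326 genes in TSCs at day 2, 60 in ESCs and 1 in XEN cells at day 7 against day 2, and 0 members. Signs changed under at least 1 setting in 20 of 63 folds, 19 of them only when a library was left out. In 2 of the 20 the fold given exceeds its SE: Tead4 in ESCs at day 7 against normoxia ranged from -0.0095 to 0.46, and Sox21 in ESCs at day 7 against day 2 from -0.10 to 0.87.

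Median-ratio scaling moved the all-gene median in TSCs at day 7 from -0.18 to -0.00 against normoxia. Cdx2 in ESCs (26 to 129 reads) and Elf5 in XEN cells (8 to 53 reads) are the members most limited by depth.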

Other observations

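Relatives of the factors in TSCs did not share 1 direction. Of 19 paralogues tested, 2 were called higher at day 7 than at day 2, the epithelial ETS factor Elf3 (log2 fold change 1.24 ± 0.27, adjusted p = 0.0428) and Tead3 (0.86 ± 0.23, adjusted p = 0.0684), and 3 lower: Sox2, the endoderm factor Gata4 (-1.60 ± 0.26, adjusted p = 0.0237) and Tead2 (-1.30 ± 0.28, adjusted p = 0.0403). Of all 12481 genes tested, 296 were called higher and 13.8% lower in this comparison. Tead2 and Tead4 were both lower, while Tead3, another partner of YAP, was higher. Cdx1, the relative of Cdx2, was at 1.255 and 1.146 TPM in normoxia, 7.12 and 4.28 at day 2, and 3.83 and 3.90 at day 7. Both hypoxic pairs lay above normoxia, with log2 fold changes of 1.83 ± 0.30 (adjusted p = 0.116) and 1.36 ± 0.30 (adjusted p = 0.187), neither of them called.

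Of 6 pluripotency markers tested in TSCs, 3 were called lower at day 7 than at day 2, beside 13.8% of all genes. They were Nanog (-1.96 ± 0.33, adjusted p = 0.0263), Utf1 (-1.53 ± 0.27, adjusted p = 0.0284) and Zfp42 (-1.16 ± 0.18, adjusted p = 0.0211). Utf1 was the abundant one, at 1034 and 1111 TPM at day 7 and 1887 to 3323 in the other 4 libraries. In ESCs at day 7 against normoxia, Elf3 was also called higher (0.90 ± 0.16, adjusted p = 0.0699), as were the germ cell and naive pluripotency gene Dppa3 (1.06 ± 0.14, adjusted p = 0.0222) and the fibroblast collagen gene Col1a1 (2.30 ± 0.37, adjusted p = 0.0544). Of 9 HIF targets in XEN cells, 1 was called higher at day 7 against normoxia, Egln3 (2.81, adjusted p = 0.0119), beside 0.11% of all genes called.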
